A study of Sus scrofa with 9 samples.

Results

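The TNF superfamily genes of swine mesenchymal stem/stromal cells (MSCs) are described here by their 5-hydroxymethylcytosine (5hmC), an oxidized form of methylated cytosine in DNA. Members were chosen by gene symbol, as genes named TNFSF, TNFRSF, TRAF or RIPK with a number, and the family genes TNF, LTA, LTB, LTBR, FAS, FASLG, CD27, CD40, CD40LG, CD70, TRADD and FADD. This gave 46 of 18933 genes in the first table, which compares Obese-MSCs with Lean-MSCs, and 45 of 18992 genes in the second table, of treated and untreated Obese-MSCs, where TNFRSF4 had no row. The 46 genes comprise 17 ligands, 3 receptors with a death domain, 2 decoy receptors, 13 receptors that bind TRAF adaptors, 7 adaptors and 4 RIP kinases. TNFRSF12A, TNFRSF25, TRAF2 and TRAF3 had no row under these symbols in either table, so they were not analysed here. The same holds for TNFRSF14, TNFRSF10A, TNFRSF10B, TNFRSF10C and TNFRSF10D.

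The cells were grown from subcutaneous abdominal fat of female domestic pigs that were 3 months old at the start of the diet. Lean pigs ate standard chow and Obese pigs a high-fat/high-fructose diet, both for 16 weeks. hMeDIP-seq, in which an antibody captures the DNA fragments that carry 5hmC, was performed on 3 libraries each of Lean-MSCs (libraries 7, 8 and 9), untreated Obese-MSCs (libraries 1, 2 and 3) and Obese-MSCs treated with vitamin-C, which serves the 5hmC-forming TET enzymes as a cofactor, at 50 µg/mL for 48 h (libraries 4, 5 and 6). Treatment began from third-passage cells in the passage that followed, beside untreated Obese-MSCs. The growth medium itself held a lower amount of vitamin-C, so untreated cells were not free of it. The authors state that the effect of vitamin-C might be underestimated for this reason. The sources used here do not say which treated and untreated libraries, if any, share a pig, and libraries were not paired. All are cultured primary cells, so the adipose tissue itself was not measured.

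Ligands of the TNF superfamily are trimeric proteins on the cell surface or shed from it, and each engages one or a few receptors. Receptors with a death domain recruit TRADD or FADD and can start apoptosis through caspases or necroptosis through RIP kinases, while the other receptors bind TRAF proteins and mostly activate NF-kB and MAP kinases. Decoy receptors bind ligand without signalling. In adipose tissue, TNF is known as an inflammatory cytokine of obesity, and many of the other ligands and receptors are best known as costimulatory molecules of lymphocytes.

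Each value is a normalized count, that is, the authors' normalized number of reads over all exons of a gene. It reflects 5hmC in the DNA of a gene and not the gene's RNA or protein. The sources used here do not say whether the counts were corrected for input DNA, and no input was used here. Capture of DNA without 5hmC was therefore not separated from 5hmC. Exon lengths were not used here, so values compare a gene between libraries and not one gene with another. In DNA pooled from many cells, more 5hmC per cell and a larger share of cells with 5hmC cannot be told apart. Libraries summed to 494566 to 522269 normalized counts in the first table, and to 547242 to 593846 in the second. Values in a preset window around 1 had a median per library of 0.775 to 1.22 normalized counts in the first table and 0.821 to 1.33 in the second. This median is called 1 step here. Because the window was preset, it does not by itself show that values gather in steps. A group mean of 3 or less amounts to a few such steps, and no fold change is given for it. The CV of a member over the 3 libraries of a group had a median of 30.7% in Obese-MSCs and 25.0% in Lean-MSCs, against 25.7% and 23.8% over all genes tested. Library 2 held the lowest of the 3 Obese values for 16 of 36 members (44.4%), against 33.5% of all genes, and library 7 the lowest of the 3 Lean values for 15 of 36 (41.7%), against 34.0%.

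The MSC markers NT5E, THY1 and ENG had signal in all 9 libraries. CD14, which MSCs lack, was listed at 0 in all 3 Lean libraries and at 0.650, 0.924 and 4.49 in the Obese libraries. PTPRC, the leukocyte gene CD45, nevertheless had 47.7, 68.5 and 61.6 normalized counts in the Lean libraries and 55.5, 35.9 and 49.4 in the Obese libraries, so a gene that MSCs do not express had signal too. None of the 6 marker genes met the criteria given below in either comparison.

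CD27, TNFRSF17, TNFSF9 and CD40LG met the study's criteria for a difference between Obese-MSCs and Lean-MSCs, recomputed here from the deposited values, which are an unadjusted p-value of 0.05 or less in a two-sided test with equal variances, and group means in a ratio no less than 1.4 (high 5hmC) or no more than 0.7 (low 5hmC). The receptor genes CD27 and TNFRSF17 had high 5hmC in Obese-MSCs, and the ligand genes TNFSF9 and CD40LG low 5hmC. These 4 of 46 members (8.70%) stand beside 4.5% of all genes, with 2 members high beside 2.07% and 2 low beside 2.43%. The 2 groups were fully separated in 5 members (10.9%), the same 4 and TRAF1, against 11.8% of all genes, a share close to that of the whole table. With limma on log2(value + 1), which was fitted over genes in the upper 80% by mean, 36 members were tested and none passed an adjusted p (Benjamini-Hochberg) of 0.05. The limma unadjusted p-value was 0.05 or less for 3 of these (8.33%), against 6.81% of all genes tested. The median limma difference of the members was 0.04 on the log2 scale, with 20 above and 16 below 0, and that of all genes was -0.00.

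**Figure D1:**
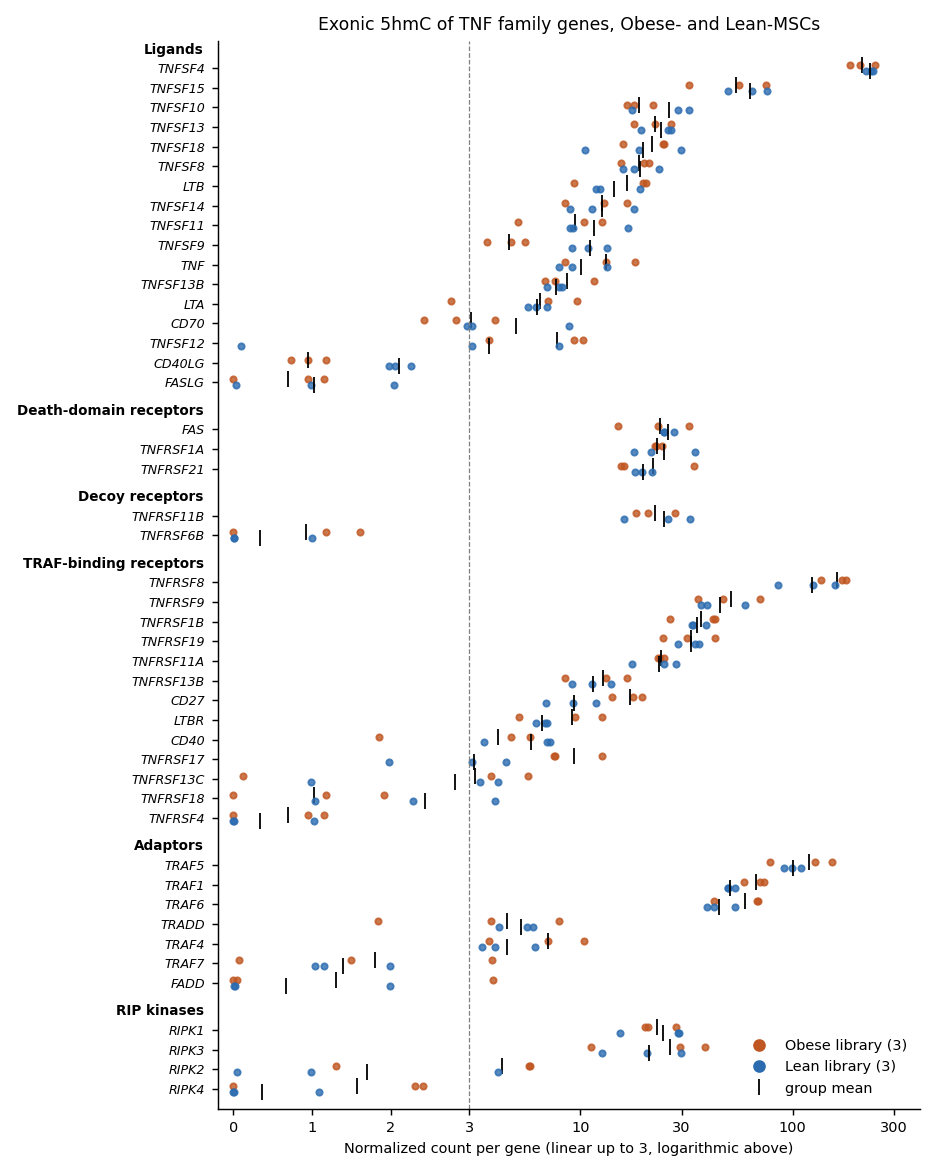
Normalized counts of the 46 genes in the 3 Obese and 3 Lean libraries (points) with the group means (bars), by role and ordered by the Lean mean; the horizontal axis is linear up to 3 and logarithmic above, and the dashed line marks 3. The points of the groups are separated for CD27, TNFRSF17, TNFSF9, CD40LG and TRAF1 and overlap for the other 41 genes.

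Among the ligands, TNFSF9 and CD40LG met the criteria for low 5hmC in Obese-MSCs and none met those for high 5hmC. TNFSF9 encodes 4-1BBL, a costimulatory ligand of T cells, and lies on chromosome 2 from 72578811 to 72582834 (Sscrofa11.1). Its normalized counts were 5.51, 4.74 and 3.62 in Obese libraries 1, 2 and 3 and 9.14, 10.9 and 13.3 in Lean libraries 7, 8 and 9. Every Lean library lay above every Obese library. The Obese mean was 4.62 ± 0.95 and the Lean mean 11.13 ± 2.10 (SD, n = 3 each), which is a log2 ratio of -1.27. The limma difference was -1.11 with a 95% interval from -1.93 to -0.29 and an adjusted p of 0.668. The criteria were met with any 1 library left out, with log2 ratios from -1.41 to -1.12.

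CD40LG, the ligand by which helper T cells activate B cells, lies on the X chromosome from 111778666 to 111788901. It had 0.739, 0.944 and 1.17 normalized counts in Obese-MSCs and 2.26, 1.98 and 2.06 in Lean-MSCs. The groups did not overlap and the criteria were met with any 1 library left out, but all 6 values lay under 3, in the lowest 8.01% of genes by mean, and close to 1 step in the Obese and 2 steps in the Lean libraries. It was not tested with limma, and p was 0.1 in its two-sided exact permutation test, the lowest that the 20 arrangements of 3 libraries against 3 allow, as it was for CD27, TNFRSF17, TNFSF9 and TRAF1.

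TNF, the founding inflammatory cytokine of the family, had 13.2, 18.1 and 8.51 normalized counts in Obese-MSCs and 9.10, 7.94 and 13.3 in Lean-MSCs. The groups overlapped, with the lowest Obese value under 2 of the Lean values. Its log2 ratio was 0.39 and the limma 95% interval ran from -0.43 to 1.09. Its neighbours LTA and LTB, the lymphotoxins, lie with it within 10.7 kb of chromosome 7 (23696387 to 23707036) and had log2 ratios of 0.05 and 0.20.

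FASLG, which triggers apoptosis through FAS, had 0, 0.952 and 1.15 normalized counts in Obese-MSCs and 0.0301, 0.992 and 2.04 in Lean-MSCs. TNFSF4 (OX40L, a T cell costimulator) had the largest total of the ligands, not corrected for exon length. It had 185, 245 and 208 in the Obese and 233, 238 and 221 in the Lean libraries. The log2 ratio was -0.12 with a limma 95% interval from -0.48 to 0.24. TNFSF4 overlaps LOC100516636 and LOC100623192, and reads of exons that genes share cannot be told apart. The FASLG values lay at 0 to 2 steps, those of TNFSF4 had the narrowest interval of the ligands, and the groups of both overlapped.

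The other 12 ligands, LTA and LTB among them, did not meet the criteria, and their groups overlapped. Log2 ratios were 1.07 for TNFSF12 (TWEAK), 0.17 for TNFSF13B (BAFF, a B cell survival factor), 0.14 for TNFSF18 (GITRL) and -0.00 for TNFSF14 (LIGHT). They were -0.02 for TNFSF8 (CD30L), -0.09 for TNFSF13 (APRIL), -0.22 for TNFSF15 (TL1A) and -0.30 for TNFSF11 (RANKL, the osteoclast factor). TNFSF10 (TRAIL, a death ligand) had -0.48 and CD70, the ligand of CD27, -0.69. The ratio of TNFSF12 rested on wide replicate error, as its Lean libraries had 0.101, 7.96 and 3.09 normalized counts. Over the 15 ligands tested with limma, the median difference was -0.08, with 6 above and 9 below 0.

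The receptors that bind TRAF proteins held both genes with high 5hmC in Obese-MSCs. CD27, a costimulatory receptor of T cells and memory B cells, lies on chromosome 5 from 64197594 to 64202236. It had 19.6, 14.2 and 17.6 normalized counts in Obese-MSCs and 6.91, 11.9 and 9.25 in Lean-MSCs. The lowest Obese library lay above the highest Lean library. The means were 17.1 ± 2.75 and 9.36 ± 2.51 (SD, n = 3 each), a log2 ratio of 0.87, and limma gave a difference of 0.83 with a 95% interval from 0.13 to 1.52 and an adjusted p of 0.694. With any 1 library left out, the ratio stayed high enough for the criteria, at log2 ratios from 0.70 to 1.09. The call nevertheless depended on which library was left out, through the p-value. It was lost without Obese library 1 (log2 ratio 0.77), without Obese library 3 (0.85), without Lean library 7 (0.70) and without Lean library 9 (0.86).

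TNFRSF17, the BCMA receptor of plasma cells, lies on chromosome 3 from 31137672 to 31141862, where it overlaps LOC100739121, and reads of exons that genes share cannot be told apart. It had 7.63, 7.55 and 12.7 normalized counts in Obese-MSCs and 4.46, 1.98 and 3.08 in Lean-MSCs. All Obese values exceeded all Lean values, the highest by far being Obese library 3. The means were 9.30 ± 2.96 and 3.17 ± 1.24 (SD, n = 3 each), a log2 ratio of 1.55, and limma gave 1.31 with a 95% interval from 0.36 to 2.26 and an adjusted p of 0.668. The criteria were no longer met without Lean library 7 (log2 ratio 1.88), 8 (1.30) or 9 (1.53), nor with a test for unequal variances.

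**Figure D2:**
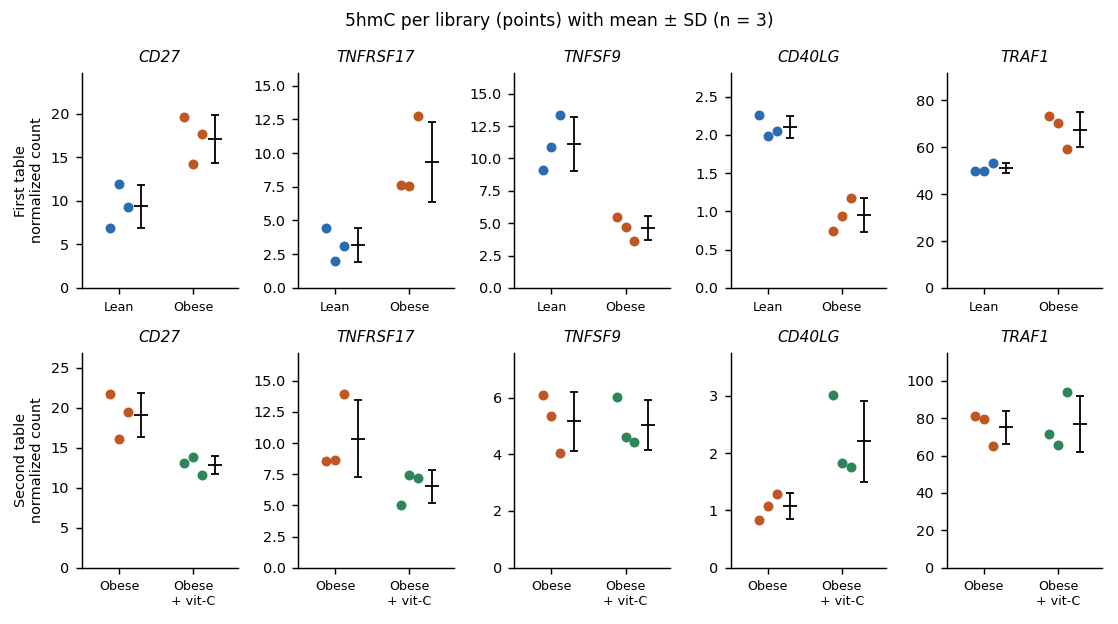
Normalized counts per library of the 5 genes whose groups did not overlap between Obese-MSCs and Lean-MSCs (upper row, first table), and of the same genes in treated and untreated Obese-MSCs (lower row, second table); points are libraries, and bars are the mean and SD of 3. CD27 and TNFRSF17 lay higher in Obese than in Lean libraries and lower in treated than in untreated ones. CD40LG lay the other way in both rows, at 1 to a few steps. TNFSF9 and TRAF1 overlapped between treated and untreated libraries. The untreated Obese libraries appear in both rows, so opposite directions in the 2 rows are not independent.

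TNFRSF8 (CD30), the receptor with the largest total over its exons, had 178, 136 and 171 normalized counts in Obese-MSCs and 85.2, 125 and 158 in Lean-MSCs. The groups overlapped through Obese library 2 and Lean library 9, and the log2 ratio was 0.40 with a limma 95% interval from -0.04 to 0.90. TNFRSF1B, the second TNF receptor, had 43.0, 26.4 and 42.2 against 34.0, 33.8 and 39.0, a log2 ratio of 0.07. CD40, which activates antigen-presenting cells, had 4.71, 1.85 and 5.77 against 3.51, 6.95 and 7.18, a log2 ratio of -0.52. In both genes the groups overlapped, and Obese library 2 held the lowest value.

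The other receptors of this class did not meet the criteria. The log2 ratio was 0.46 for LTBR (the lymphotoxin beta receptor), 0.17 for TNFRSF9 (4-1BB, the receptor of TNFSF9), 0.16 for TNFRSF13B (TACI), 0.02 for TNFRSF11A (RANK) and 0.00 for TNFRSF19 (TROY). TNFRSF13C, TNFRSF18 and TNFRSF4 had a group mean of 3 or less. TNFRSF4 (OX40), which had the lowest Lean mean of the receptors that bind TRAF proteins, had 0, 0.952 and 1.15 normalized counts in Obese-MSCs and 0.0103, 0 and 1.02 in Lean-MSCs. Of the 10 receptors of this class tested with limma, 8 had a difference above 0 and 2 below, with a median of 0.13.

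No receptor with a death domain and no decoy receptor met the criteria. TNFRSF1A, the main receptor of TNF, had 24.1, 22.7 and 22.4 normalized counts in Obese-MSCs and 34.7, 17.9 and 21.6 in Lean-MSCs. The Obese values lay within the range of the Lean values, the log2 ratio was -0.10, and the limma 95% interval ran from -0.66 to 0.58. This gene overlaps PLEKHG6. FAS had 23.3, 15.1 and 32.5 in the Obese and 24.9, 24.8 and 27.7 in the Lean libraries, a log2 ratio of -0.13 with a limma 95% interval from -0.82 to 0.45, and here the Lean values lay within the Obese range. TNFRSF21 (DR6) had a log2 ratio of 0.15. For all 3 death-domain receptors the interval excluded a 2-fold difference on the log2(value + 1) scale. The decoy TNFRSF11B (osteoprotegerin, which binds RANKL and TRAIL) had a log2 ratio of -0.15, and TNFRSF6B (DcR3, which binds FASLG) had 1.61, 0 and 1.17 against 0.0103, 0.995 and 0.00228 normalized counts.

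Of the adaptors, TRAF1 alone separated the groups, and it did not meet the criteria because its ratio fell short of 1.4. TRAF1, an NF-kB target that modulates signalling through TRAF2, lies on chromosome 1 from 260948191 to 260973978. It had 73.2, 70.2 and 59.1 normalized counts in Obese-MSCs and 49.8, 49.6 and 53.4 in Lean-MSCs. The means were 67.5 ± 7.45 and 50.9 ± 2.13 (SD, n = 3 each), a ratio of 1.33, and the limma difference was 0.39 with a 95% interval from -0.07 to 0.86 and an adjusted p of 0.785. Without Obese library 3 the ratio passed 1.4 and the gene met the criteria, with a log2 ratio of 0.49.

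TRAF5, which links CD27 and CD40 to NF-kB, had 128, 78.5 and 154 normalized counts in Obese-MSCs and 110, 91.3 and 99.6 in Lean-MSCs. Obese library 2 lay below all Lean libraries and Obese libraries 1 and 3 above them, and the log2 ratio was 0.26. TRAF6 and TRAF4 had log2 ratios of 0.40 and 0.64, and TRAF7 had group means under 3. TRADD, the adaptor of TNFRSF1A, had 3.81, 1.84 and 7.97 against 5.64, 5.96 and 4.12 normalized counts, a log2 ratio of -0.21 that ran from -0.89 to 0.17 with 1 library left out. FADD, the adaptor of FAS, had 0, 3.86 and 0.0473 against 0.0203, 1.99 and 0.00451, too low for a comparison. The 5 adaptors tested with limma had a median difference of 0.37, with 4 above and 1 below 0.

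The RIP kinases did not differ by the criteria. RIPK1, the kinase of the TNF receptor complex, had 28.3, 20.8 and 20.2 normalized counts in Obese-MSCs and 29.2, 28.8 and 15.5 in Lean-MSCs, a log2 ratio of -0.09 with a limma 95% interval from -0.69 to 0.60. RIPK3, which drives necroptosis, had a log2 ratio of 0.33. RIPK2, the kinase of the NOD receptors, had 1.30, 5.72 and 5.77 against 0.0491, 0.990 and 4.08 normalized counts, and RIPK4 had 2.41, 0 and 2.31 against 1.10, 0 and 0.00229. In RIPK2 and RIPK4 the groups overlapped.

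With Obese library 2 left out, 5 members met the criteria for high 5hmC, which were CD27, TNFRSF17, TRAF5, TRAF6 and RIPK4, against 2 with all libraries. None did without Lean library 7 or without Lean library 9, and the second of these added TNFSF10 to the genes with low 5hmC. LTBR was added without Obese library 1. CD40LG and TNFSF9 met the criteria for low 5hmC in each of these 6 leave-one-out comparisons. All 6 values of RIPK4, as of CD40LG, lay under 3. The counts over all genes moved as well. Genes with high 5hmC ran from 268 to 488 with each library left out, against 391 with all libraries. Those with low 5hmC ran from 380 to 502, against 461.

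Lymphocyte markers were read beside CD27, TNFRSF17, TNFSF9 and CD40LG, which are best known from lymphocytes and the cells that activate them. Of CD3E, CD4, CD79A and MS4A1, 1 of 4 met the criteria, which was CD3E with low 5hmC in Obese-MSCs (32.0, 21.7 and 35.1 against 48.6, 52.6 and 47.3 normalized counts). The summed level of the 4 genes ranged from 40.5 to 65.4 in the Obese and from 73.7 to 81.1 in the Lean libraries, and no marker was at 0 in every library of a group. CD3E carried this separation, as the other 3 genes summed to 18.8 to 30.3 in the Obese and 25.0 to 33.8 in the Lean libraries, which overlap. The summed level of the MSC markers NT5E, THY1 and ENG ranged from 94.8 to 123 in the Obese and from 80.1 to 88.4 in the Lean libraries, but without ENG it overlapped, at 42.8 to 59.4 against 33.1 to 50.7. These sums with a marker left out were added after the data were seen. The part of cell composition in these results was not tested. Of the markers of macrophages, endothelial cells and adipocytes, none of 4 each met the criteria. Their summed levels overlapped between the groups, at 89.6 to 171 against 115 to 124 for macrophages, 195 to 208 against 143 to 221 for endothelial cells and 110 to 128 against 99.7 to 139 for adipocytes.

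**Figure D3:**
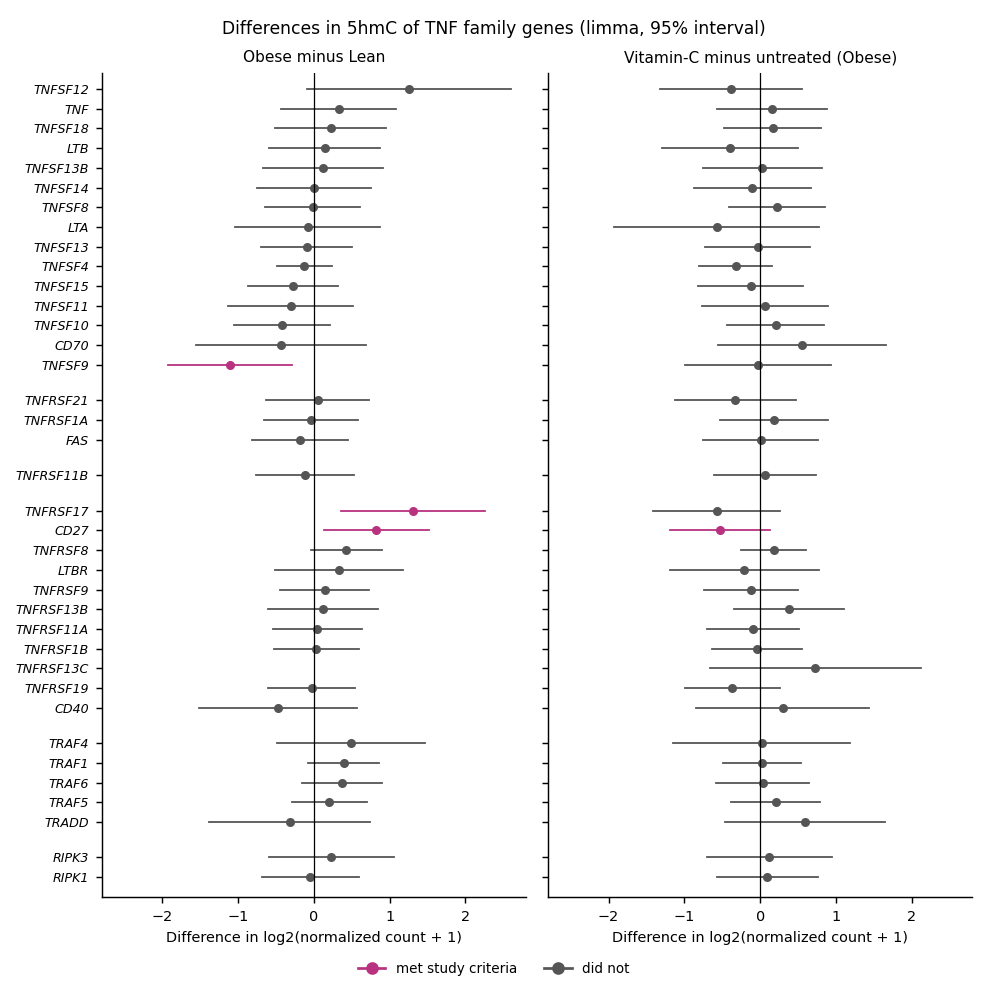
Limma differences in log2(normalized count + 1) with 95% intervals for the members tested, by role, for Obese minus Lean (left) and vitamin-C-treated minus untreated Obese-MSCs (right). Genes that met the study criteria are in magenta; on the left the intervals of TNFSF9, TNFRSF17 and CD27 leave out 0, and on the right every interval includes it.

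The genes downstream of these receptors and other family genes that the symbols did not select were counted in the same way. Of 48 such genes in the first table, 2 met the criteria for high 5hmC in Obese-MSCs and none for low 5hmC, beside 2.07% and 2.43% of all genes. IKBKB, the kinase that releases NF-kB, had 24.2, 23.7 and 16.7 normalized counts in the Obese and 14.7, 14.9 and 13.4 in the Lean libraries, a ratio of 1.51. TNIP1, which binds the NF-kB inhibitor A20, had 123, 96.6 and 115 against 45.6, 91.4 and 64.7, a ratio of 1.66. In both genes the groups did not overlap, with limma adjusted p-values of 0.779 and 0.668. The IKBKB call was kept only without Obese library 3, and was lost without Obese library 1 (log2 ratio 0.50) or 2 (0.52) and without Lean library 7 (0.61), 8 (0.62) or 9 (0.54). That of TNIP1 was kept only without Lean library 8, and was lost without Obese library 1 (0.66), 2 (0.83) or 3 (0.71) and without Lean library 7 (0.52) or 9 (0.71).

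CYLD and MADD also separated the groups, which makes 4 of 48 genes beside 11.8% of all genes, and are named after their values were seen. CYLD, a deubiquitinase that restrains NF-kB, had a ratio of 1.46. MADD, an adaptor of TNFRSF1A, had a ratio of 0.705, just above 0.7, as recomputed here from the deposited values and not taken from the study's own lists. None of 8 genes of death execution met the criteria, CASP8 (the caspase that FADD recruits) having a log2 ratio of 0.31 and its inhibitor CFLAR -0.14. None of 8 genes of NF-kB met them, with 0.17 for NFKB1 and -0.13 for RELA, and these 4 examples were also picked after their values were seen. Limma tested 45 of the genes, none at an adjusted p-value of 0.05 or less and 1, TNIP1, at an unadjusted one, and their median difference was 0.13.

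Vitamin-C-treated and untreated Obese-MSCs were compared in the second table to ask which genes changed with treatment. CD27 alone met the criteria, with low 5hmC after treatment, which is 1 of 45 members (2.22%) beside 1.92% of all genes, or beside 0.806% for low 5hmC. No member had high 5hmC, beside 1.11% of all genes. These shares of all genes themselves depended on single libraries, since 211 genes were high, but 364 without treated library 4, and 153 were low, but 245 without untreated library 1. Treated and untreated libraries did not overlap in CD27, TNFRSF17 and CD40LG, 3 members (6.67%) against 5.91% of all genes. With limma, 37 members were tested, none at an adjusted p-value of 0.05 or less, and none at an unadjusted p-value of 0.05 or less, against 0.974% of all genes tested. The median difference was 0.02, with 21 above and 16 below 0, and that of all genes was -0.01.

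The untreated Obese libraries serve in both comparisons, each time normalized with the other libraries of that table, and the values of the members in the second table were a median of 1.11, 1.14 and 1.1 times those in the first in libraries 1, 2 and 3. The 2 comparisons are therefore not independent, and each is given by its own values. Error in the untreated values moves the 2 ratios of a gene in opposite directions. Opposite ratios in the 2 comparisons were therefore not read as a reversal.

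CD27 had 13.1, 13.9 and 11.6 normalized counts in treated libraries 4, 5 and 6 and 21.7, 16.1 and 19.4 in untreated libraries 1, 2 and 3. Every treated library lay below every untreated library. The means were 12.9 ± 1.17 and 19.1 ± 2.78 (SD, n = 3 each), and the limma difference was -0.53 with a 95% interval from -1.19 to 0.13. The log2 ratio was -0.57. The criteria were met without untreated library 2 (log2 ratio -0.68), and were not met without untreated library 1 (-0.47) or 3 (-0.56) or without treated library 4 (-0.58), 5 (-0.63) or 6 (-0.50).

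TNFRSF17 had 5.03, 7.42 and 7.18 normalized counts in the treated and 8.56, 8.62 and 13.9 in the untreated libraries. The groups did not overlap, but the criteria were not met. The log2 ratio was -0.66, and the limma difference was -0.57 with a 95% interval from -1.41 to 0.26. CD40LG had 3.02, 1.83 and 1.76 in the treated and 0.840, 1.08 and 1.29 in the untreated libraries, again at 1 to a few steps. For each of these 3 genes p was 0.1, the lowest possible, in a two-sided exact permutation test.

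TNFSF9 had 6.03, 4.61 and 4.44 normalized counts with treatment and 6.09, 5.36 and 4.03 without. The groups overlapped almost fully, at a log2 ratio of -0.04 with a limma 95% interval from -0.99 to 0.94. TRAF1 had 71.4, 65.6 and 94.2 against 81.3, 79.3 and 65.0, a log2 ratio of 0.04 with an interval from -0.49 to 0.54. Both groups of values overlapped in these genes, which had separated Obese-MSCs from Lean-MSCs.

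TNF had 16.1, 15.7 and 16.1 normalized counts in the treated and 14.7, 20.3 and 9.48 in the untreated libraries. The treated values lay close together within the untreated range, and the log2 ratio was 0.11 with a limma 95% interval from -0.56 to 0.89. TNFRSF1A had 17.1, 42.7 and 34.1 against 26.8, 25.7 and 24.7, a log2 ratio of 0.28. Treated library 4 lay below and libraries 5 and 6 above the untreated ones, and without library 4 the gene met the criteria for high 5hmC with a log2 ratio of 0.58.

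The remaining named genes overlapped between treated and untreated libraries. TNFRSF1B had 35.2, 37.9 and 45.7 normalized counts against 47.6, 30.2 and 46.4 (log2 ratio -0.06), and FAS had 40.2, 17.4 and 23.2 against 25.9, 17.3 and 35.7 (0.04). CD40 had 7.04, 8.40 and 2.56 against 5.21, 2.21 and 6.30 (0.39). TRADD had 5.04, 8.35 and 9.0 against 4.27, 2.22 and 8.64 (0.56). RIPK1 had 39.2, 24.9 and 20.4 against 31.3, 23.6 and 22.2, with a log2 ratio of 0.13.

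The genes with most signal also overlapped. TNFSF4 had 221, 220 and 137 normalized counts against 206, 277 and 229 (log2 ratio -0.30), TNFRSF8 had 215, 175 and 221 against 198, 155 and 188 (0.18), and TRAF5 had 151, 108 and 202 against 142, 89.2 and 169 (0.20). FASLG, FADD, TNFRSF6B and RIPK4 had a mean of 3 or less in both groups. The other 12 ligands had log2 ratios from -0.54 for TNFSF12 to 0.78 for CD70, and none met the criteria. Among the receptors not yet given, log2 ratios ran from -0.40 for TNFRSF19 to 0.49 for TNFRSF13C, with -0.36 for TNFRSF21 and 0.10 for TNFRSF11B, and they were 0.33 for TRAF4, 0.06 for TRAF6 and -0.02 for RIPK3. TNFRSF18 and TRAF7 had means under 3, and RIPK2 did with treatment.

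By role, the 15 ligands tested had a median limma difference of -0.03, the 11 receptors that bind TRAF proteins -0.10 and the 5 adaptors 0.04. Without treated library 4, CD40LG also had high 5hmC. Without untreated library 1, RIPK2 had low 5hmC, and without untreated library 2 TNFSF12 did.

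**Figure D4:**
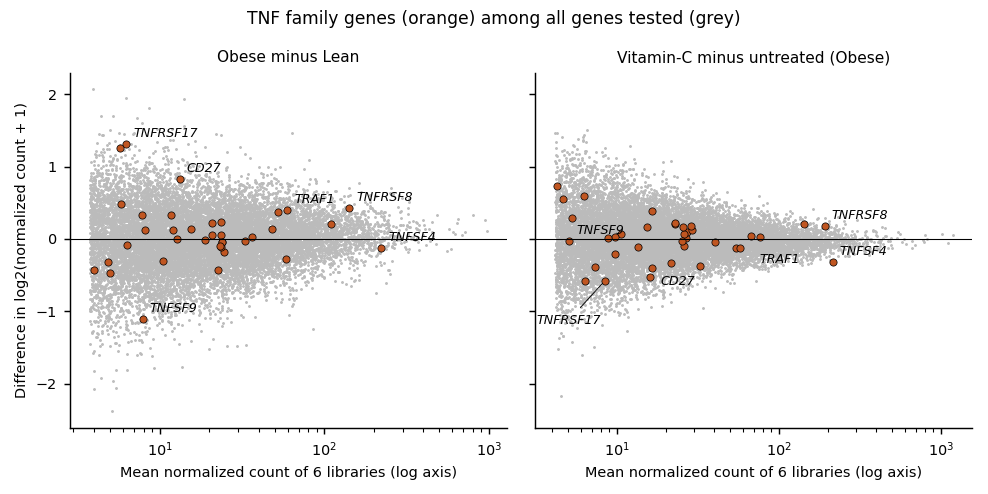
Limma difference in log2(normalized count + 1) against the mean normalized count of the 6 libraries (logarithmic axis) for all genes tested (grey) and the members tested (orange), for Obese minus Lean and for vitamin-C-treated minus untreated Obese-MSCs. The members lie within the spread of all genes at their level, TNFRSF17, CD27 and TNFSF9 toward its edge on the left, and differences narrow as the mean grows.

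Of 47 downstream and other family genes in the second table, none met the criteria in either direction, and 2 separated the groups, beside 5.91% of all genes. These 2 are named after their values were seen. RELT, a receptor of the family without a TNFRSF symbol here, had 20.1, 22.2 and 32.4 normalized counts with treatment and 14.7, 17.1 and 11.9 without, a ratio of 1.71. TAB1, a partner of the kinase TAK1, had 8.05, 11.09 and 16.3 against 6.04, 5.38 and 6.45, a ratio of 1.98. With limma none of 45 had an adjusted p-value of 0.05 or less and 1, RELT, had an unadjusted one. IKBKB and TNIP1 had log2 ratios of -0.18 and -0.17. In the markers none met the criteria after treatment. The summed lymphocyte markers ranged from 46.9 to 90.0 in treated and from 46.4 to 71.8 in untreated libraries, and those of MSCs from 86.5 to 125 and from 104 to 139. The summed markers of macrophages ranged from 128 to 176 and from 98.8 to 189, and those of adipocytes from 118 to 129 and from 124 to 142. Those of endothelial cells did not overlap, at 170 to 210 in treated and 221 to 231 in untreated libraries, but most of each sum was PECAM1, whose own values overlapped. Without PECAM1 the sums overlapped, at 57.3 to 72.6 against 64.4 to 78.6, as they did without VWF. The sums stayed apart without CDH5, at 154 to 196 against 205 to 214, and without KDR, at 162 to 195 against 201 to 219. CDH5 itself did not overlap, with 14.1, 15.8 and 11.6 normalized counts in treated and 17.3, 16.1 and 18.1 in untreated libraries. Of the 4 endothelial genes, 3 had a limma difference below 0 and 1 above.

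Ligands and their receptors were set side by side. Of 21 known pairs in the first table and 20 in the second, none had both partners meeting the criteria. CD70 and its receptor CD27 had log2 ratios of -0.69 and 0.87 in Obese-MSCs versus Lean-MSCs, and of 0.78 and -0.57 with treatment, but CD70 did not meet the criteria. Its Obese values of 3.96, 2.83 and 2.42 overlapped the Lean values of 8.83, 2.97 and 3.1. TNFSF9 and its receptor TNFRSF9 had -1.27 and 0.17, and the ligands of TNFRSF17, which are TNFSF13 and TNFSF13B, had -0.09 and 0.17 beside its 1.55.

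Neighbours on the chromosome were also set side by side. By Sscrofa11.1 positions, 20 of the 46 genes lay in 8 clusters, with gaps of at most 500 kb between members. CD27 lies with LTBR and TNFRSF1A within 134 kb of chromosome 5 (64197594 to 64331876), and the log2 ratios in Obese-MSCs versus Lean-MSCs were 0.87, 0.46 and -0.10. TNFSF9 lies with CD70 and TNFSF14 within 105 kb of chromosome 2 (72478178 to 72582834), with -1.27, -0.69 and -0.00. These clusters are shown because each holds a gene that met the criteria, which was 1 of 3 genes in both. No gene of the other clusters met the criteria in this comparison, and the differences between neighbours were not tested. In all, 9 members overlap another annotated gene, and for 6 of these the other gene has a row of its own in the first table. These 6 are TNFSF4, LTB, TNFRSF1A, TNFRSF6B, TNFRSF11B and TRADD.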

How the data were processed

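The authors aligned paired hMeDIP-seq reads with Bowtie2 2.3.3.1 to susScr 11.1, removed duplicates with Picard 1.67, counted reads over exons with HTSeq 0.9.1 and processed counts with edgeR 3.28.1. The deposited values are a signal per gene, fractional normalized counts, in 2 tables normalized separately. Whole reads were not recovered, so depth in reads is unknown and no count test or counting interval was used. In the second table, 25 gene names had become dates and 645 values of numerical residue were set to 0. Tests ran on all genes within a table, by the study's criteria, recomputed here without using the study's own lists, and with limma 3.58.1 (R 4.3.3) with trend on log2(value + 1). They were also run on simulated data, in which only genes at or above the median mean were changed. That simulation does not cover lower genes such as TNFRSF17, TNFSF9 and CD40LG. Single genes had an exact permutation test. Other steps used Python 3.11.15, numpy 2.4.6, pandas 2.3.3, scipy 1.17.1 and matplotlib 3.10.9. Library values are given for members that met the criteria or separated groups, for 10 core genes and for the 3 highest and lowest Lean means, and ratios for most others. Those of RIPK2, CD70 and TNFSF12 were added after values were seen. Members and lists were chosen with earlier results of these data known. Positions, matched by symbol for all 46 members, are from RefSeq (Sscrofa11.1). Values are relative, so a change of 5hmC in all genes together would not be seen.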

Additional observations from a re-analysis of the deposited data

How the results depend on the processing

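No paired analysis was made because the labels give treated, untreated and Lean libraries no shared replicate numbers. Over all genes, the correlation of log2(value + 1) was 0.937 for treated library 4 with untreated library 1, and 0.937 for 5 with 2. It ran from 0.908 to 0.922 for the other treated and untreated pairs, with 0.912 for 6 with 3. Whether these libraries share a pig was not tested. If they do, the unpaired tests and intervals for vitamin-C leave that out and may be too wide. The log2 ratio of TRADD (-0.21) ran from -0.89 to 0.17 with each library left out, and with vitamin-C (0.56) from 0.21 to 1.2. With a library left out, the sign also changed for FAS, RIPK1, TNFRSF1A and TNFRSF1B in both comparisons and, with vitamin-C, for TNF, TNFSF9, TRAF1 and TRAF5, none of them called in that comparison. Over all genes, vitamin-C counts ran from 196 to 364 high (211 with all libraries) and from 156 to 245 low (153) with each library left out. Those for Obese-MSCs versus Lean-MSCs ran from 268 to 488 high (391) and from 380 to 502 low (461). For Obese-MSCs versus Lean-MSCs, members with high 5hmC were 2, but 1 with unequal variances (CD27) and 0 at a p threshold of 0.01, and 0 to 5 with each library left out. Members with low 5hmC were 2, but 1 in the upper 80% by mean, where CD40LG was filtered out, and 2 to 3 with each library left out. For vitamin-C, members with high 5hmC were 0, but 1 (CD40LG) with the test on log2(value + 1), and 0 to 2 with each library left out. Those with low 5hmC were 1, but 0 at a p threshold of 0.01 and 0 at a ratio threshold of 1.5, and 0 to 2 with each library left out. Downstream genes with high 5hmC in Obese-MSCs were 2, but 1 with the test on log2(value + 1), 0 with unequal variances, 0 at a p threshold of 0.01 and 1 after quantile normalization, and 0 to 2 with each library left out. Downstream genes with low 5hmC in Obese-MSCs were 0, but 1 after quantile normalization, and 0 to 1 with each library left out. With vitamin-C, high downstream genes were 0, but 2 with the test on log2(value + 1), and 0 to 1 with each library left out, as were low ones. Causes were not tested. No member passed limma at an adjusted p of 0.05 under any pseudocount, filter, variance model, scaling or left-out library tried. With 3 libraries a group, the limma 95% interval of a member reached a median of 0.69 on the log2 scale to either side in Obese-MSCs versus Lean-MSCs and 0.73 with vitamin-C. It lay within 1 of 0 for 22 of 36 and 24 of 37 members. The reach to either side ran from 0.36 to 1.34 and from 0.43 to 1.39. A difference smaller than the reach of a member's own interval could not be told from 0.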
